A study of Mus musculus with 6 samples.

Results

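The glucocorticoid-producing cells of the mouse adrenal cortex that carry little mRNA of the drug and steroid efflux pump Abcb1b were examined in 2 droplet single-cell RNA sequencing libraries. One library came from C57BL/6 mice after 21 days of chronic social defeat, a model of repeated attack by an aggressive mouse, and the other from unstressed C57BL/6 controls. The mice were 10 weeks old, and each library held the adrenals of 5 mice pooled before dissociation with collagenase. A barcode, which stands for 1 droplet, was taken when it had at least 200 genes, at most 25% mitochondrial transcripts, at least 0.1% of its unique molecular identifiers (UMIs, counted transcript molecules) from Cyp11b1, fewer than 2 UMIs of Cyp11b2 and Hsd3b6 together, and fewer than 10 UMIs of Abcb1b. This gave 1058 members, 554 in the stress library and 504 in the control library, of 5513 adrenal barcodes and of 23083 barcodes in the study's 6 libraries. The series also profiled the paraventricular hypothalamus and the pituitary, and asked how the hormone axis that controls glucocorticoid output differs after chronic stress.

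The zona fasciculata is the broad middle layer of the adrenal cortex. Its cells take up cholesterol, pass it to the mitochondria through the Star protein and turn it into corticosterone, the main glucocorticoid of the mouse, by a chain of enzymes that ends with Cyp11b1. Pituitary ACTH drives them through its receptor Mc2r and cAMP, and glucocorticoid output in mice follows a daily rhythm to which a clock inside the gland contributes. The outer zona glomerulosa makes aldosterone instead, with the enzyme Cyp11b2, and Hsd3b6 is one of its marker genes.

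The 4 genes of the rule chose the members, so their values describe the choice and nothing else. Members made up 17.4% (exact 95% interval 16.1 to 18.8) of the 3183 stress barcodes and 21.6% (19.97 to 23.36) of the 2330 control barcodes. The filters on genes and mitochondrial transcripts left 2805 stress and 2200 control barcodes, of which 932 and 679 reached the Cyp11b1 level. Of those, 288 stress and 111 control barcodes had 2 or more UMIs of Cyp11b2 and Hsd3b6, and 90 and 64 of the rest had 10 or more Abcb1b UMIs. Cyp11b1 made up a median of 0.212% of a member's UMIs in the stress library and 0.244% in the control library, with a highest share of 0.621%. No Abcb1b UMI was found in 312 stress and 258 control members, and 1 UMI in 134 and 110. A member had a median of 11360.5 UMIs from 3314.5 genes in the stress library and 12718.5 UMIs from 3487.5 genes in the control library. Summed over the members, the stress library held 6812698 UMIs and the control library 7004695, so the sums were close to equal in depth, while the median member was deeper in control. The median mitochondrial share was 6.38% in stress and 6.42% in control members.

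Each condition was 1 library from 1 pool, and cells of a pool are not replicates, so no test between stress and control was possible. A level below is the sum of a gene's UMIs over the members, scaled to 1000000 UMIs of the members (CPM). A difference is the log2 ratio of the stress over the control level, with 0.5 UMI added to each sum. Each interval is an exact 95% interval of the molecules counted, and says nothing of the spread between mice.

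The markers placed the members in the steroid-producing cortex. Star (ENSMUSG00000031574, chromosome 8, 25806555 to 25815982, plus strand) was at 2270 CPM in stress and 2148 CPM in control members, and every member carried it. Mc2r (ENSMUSG00000045569, chromosome 18, 68406907 to 68429320, minus strand) was at 269 CPM in stress and 285 CPM in control members, with a UMI in 89.7% and 90.5% of them. Both shares were above those of a cell type that should lack the genes. With each barcode thinned to 2000 UMIs, Mc2r was found in 42.2% of stress and 43.5% of control members, against 4.01% and 7.82% of macrophage-marked barcodes, and Star in 95.7% and 96.2%, against 26.4% and 21.8%. Barcodes with 2 or more UMIs of Cyp11b2 and Hsd3b6, the zona glomerulosa genes, had shares close to those of the members, 41.6% in stress and 43.5% in control for Mc2r and 91.4% and 88.9% for Star. The share of cells with Mc2r or Star thus did not set the members apart from those barcodes. Cyp11b1 chose the members, and the levels of Star and of outer-cortex genes are compared between these classes further on. Cyp17a1 had 6 UMIs in stress and 16 in control members. Adrenals of mice lack this enzyme and therefore make corticosterone in place of cortisol.

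Few members carried another cell type's markers. A barcode was marked as another type when at least 5 UMIs from at least 3 of that type's markers made up at least 0.1% of its UMIs. Macrophage marking was found in 12 stress and 13 control members, endothelial marking in 17 stress and 5 control members, and chromaffin marking in 0 and 1. The 10 macrophage markers summed to 259 CPM in stress and 264 CPM in control members, and to 111 and 44.5 CPM in the members not marked as another type. The 10 endothelial markers summed to 140 CPM in stress and 61.1 CPM in control members, and to 59.7 and 44.5 CPM in the unmarked ones. The chromaffin sum was 33.9 CPM in stress and 40.4 CPM in control members, and 32.7 and 14.0 CPM in the unmarked ones. Of the 10 chromaffin markers, 4 had 0 UMIs in stress and 3 in control members, with Pnmt and Gata3 at 0 in both. The adrenal libraries shared 10 barcode sequences, none of them a member in both. A doublet score set at 0.8% per 1000 barcodes would remove 18 stress and 13 control members, which were kept.

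The cuts of the rule lay within continuous ranges. Members just above the Cyp11b1 cut, at 0.10 to 0.12% of UMIs (61 stress and 54 control barcodes), had 1653 and 1531 CPM of Star, and barcodes just below it, at 0.08 to 0.10% (60 and 55), had 1574 and 1389 CPM. Dab2, a gene of the outer cortex, was at 782 CPM in stress and 528 CPM in control barcodes just above the cut, and at 901 and 847 CPM just below it. Members with 5 to 9 Abcb1b UMIs (17 stress and 37 control) had 261 and 237 CPM of Mc2r, and barcodes with 10 to 24 (16 and 18) had 127 and 158 CPM. Members with 1 UMI of Cyp11b2 and Hsd3b6 (91 stress and 63 control) had 2178 and 1990 CPM of Star, and barcodes with 2 (48 and 27) had 2007 and 1787 CPM.

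The first comparison asked which transcripts differed between stress and control members. The clock-controlled transcription factor gene Dbp had the interval farthest above no difference in stress members, and other output genes of the circadian clock were higher with it. The orphan nuclear receptor gene Nr4a1, the metallothioneins and the aldehyde reductase gene Akr1b7 were lower, as were 5 of 18 immediate-early genes. The enzymes of corticosterone synthesis differed by less than 1.5-fold. Of 8450 genes with at least 100 UMIs over both libraries, 205 (2.43%) were at least 1.5-fold higher in stress with an interval that excluded no difference, and 235 (2.78%) were as far lower. These are the genes called higher or lower below, and the median log2 ratio over all 8450 was 0.04. Of the 8450, 4767 lay above control and 3683 below by any amount, which is the background for such counts in the lists. With the ratio in macrophage- or endothelial-marked barcodes of the same libraries subtracted, 638 of 8347 genes were higher and 416 lower. The counting error of the subtracted ratio was not added to those intervals, so these counts cannot be set against the 205 and 235. With each member thinned to 2000 UMIs, 3040 genes could be tested, of which 82 (2.70%) were higher and 81 (2.66%) lower.

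Dbp (ENSMUSG00000059824, chromosome 7, 45705088 to 45710203, plus strand) had 229 CPM in stress members and 39.8 CPM in control members. It was found in 401 of 554 stress and 146 of 504 control members, and the log2 ratio was 2.52 (2.34 to 2.71). Dbp encodes a transcription factor of the PAR bZIP family whose mRNA cycles strongly over the day in many tissues. Tef, a gene of the same family, had 29.4 CPM in stress and 9.28 CPM in control members, a log2 ratio of 1.65 (1.25 to 2.09), and Per3, a clock gene of the Period family, 24.8 and 7.42 CPM, a log2 ratio of 1.73 (1.28 to 2.22). The third family member, Hlf, had 46 UMIs in stress and 11 in control members, too few to be tested.

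Of 14 clock genes tested, 7 were called higher and 4 lower, against 2.43% and 2.78% of all genes. Besides Dbp, Tef and Per3, the higher ones were Bhlhe41 (12.9 CPM in stress and 5.57 in control, log2 ratio 1.20), Per2 (26.0 and 12.9 CPM, 1.01), Nr1d2 (26.4 and 16.4 CPM, 0.68) and Nr1d1 (76.6 and 48.5 CPM, 0.66). Bhlhe41, Per2 and the REV-ERB receptor genes Nr1d1 and Nr1d2 encode repressors within the clock. The lower ones were Arntl, which encodes the clock activator BMAL1 (9.54 CPM in stress and 24.7 in control, -1.37, interval -1.81 to -0.95), Bhlhe40 (12.04 and 33.3 CPM, -1.46), the repressor gene Nfil3 (17.03 and 36.98 CPM, -1.12) and Per1 (23.3 and 44.1 CPM, -0.92). Clock, the partner of Arntl, was at 57.7 CPM in both libraries, and Npas2, a substitute for Clock, had 12 UMIs in stress and 47 in control members. Arntl and the 7 higher genes thus differed in opposite directions, with Bhlhe40, Nfil3 and Per1 on the side of Arntl, and the list's median of 0.33 averages over both. The time of day at which each pool was collected was not given in the sources used here.

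Promoter windows are shown for 4 of these genes because the motifs bound by the clock factors occur in them. The letters are RefSeq sequence on GRCm38.p6 from 250 bases before to 50 after the gene's start, 5′ to 3′ on the gene's strand. Capitals mark the E-box CACGTG, the letters bound by CLOCK and BMAL1, or the D-box TTATGTAA, the letters bound by DBP and TEF, each searched on both strands.
Tef (chr15:81802423-81802722, plus strand, 1 E-box): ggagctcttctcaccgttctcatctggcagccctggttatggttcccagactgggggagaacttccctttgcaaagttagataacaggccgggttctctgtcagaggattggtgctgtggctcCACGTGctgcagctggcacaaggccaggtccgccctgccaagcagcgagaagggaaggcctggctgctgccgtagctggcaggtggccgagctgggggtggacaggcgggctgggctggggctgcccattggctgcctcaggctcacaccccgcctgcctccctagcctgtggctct
Bhlhe41 (chr6:145865371-145865670, minus strand, 1 E-box): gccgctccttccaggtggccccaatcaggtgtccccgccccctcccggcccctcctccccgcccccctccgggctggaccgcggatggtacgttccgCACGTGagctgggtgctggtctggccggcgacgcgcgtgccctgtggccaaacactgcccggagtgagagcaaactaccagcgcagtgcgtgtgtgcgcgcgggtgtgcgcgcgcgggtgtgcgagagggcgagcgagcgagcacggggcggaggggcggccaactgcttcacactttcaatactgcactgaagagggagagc
Per1 (chr11:69098699-69098998, plus strand, 1 E-box): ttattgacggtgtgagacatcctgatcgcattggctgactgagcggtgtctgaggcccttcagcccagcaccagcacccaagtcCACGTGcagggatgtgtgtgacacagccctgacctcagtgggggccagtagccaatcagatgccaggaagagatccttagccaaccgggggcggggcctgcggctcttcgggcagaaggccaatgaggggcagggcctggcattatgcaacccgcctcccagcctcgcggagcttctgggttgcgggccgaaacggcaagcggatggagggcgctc
Per3 (chr4:151044616-151044915, minus strand, 2 D-boxes): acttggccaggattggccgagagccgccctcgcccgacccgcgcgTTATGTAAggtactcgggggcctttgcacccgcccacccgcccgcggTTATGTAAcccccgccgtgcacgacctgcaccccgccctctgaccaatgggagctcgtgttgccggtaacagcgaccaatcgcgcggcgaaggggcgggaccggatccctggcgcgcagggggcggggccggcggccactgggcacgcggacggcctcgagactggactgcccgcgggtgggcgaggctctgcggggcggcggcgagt
The match began 127 bases before the start in Tef, 153 in Bhlhe41 and 166 in Per1, and the Per3 matches began 205 and 158 bases before it. Of 16 clock genes with a window, 5 held the E-box (Bhlhe41, Ciart, Cry1, Per1 and Tef), against 8.09% of 27025 genes, and 1, Per3, held this D-box, against 1.11%. Tef and Bhlhe41 were called higher and Per1 lower, so genes with the E-box stood on both sides. A match is a description of letters in the window and not a test of binding.

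The same genes were read in the other adrenal barcodes. In the 779 stress and 434 control barcodes with 2 or more UMIs of Cyp11b2 and Hsd3b6, the log2 ratio was 1.44 for Dbp, 0.67 for Per3, 0.80 for Tef, -1.08 for Arntl and -0.79 for Per1. In macrophage- or endothelial-marked barcodes outside the cortex it was 1.10 for Dbp, -0.15 for Per3, -0.42 for Tef, -0.03 for Arntl and -0.14 for Per1. In the barcodes with 10 or more Abcb1b UMIs it was 0.08 for Dbp, -1.25 for Per3 (-2.42 to -0.21), -0.28 for Tef, -1.31 for Arntl and -0.11 for Per1, each of the last 4 from at most 50 UMIs over both libraries. The other cortex barcodes with Cyp11b2 or Hsd3b6 UMIs had the members' direction in these 5 genes with smaller sizes, and the difference between the sets was not tested. At a Cyp11b1 minimum of 0.2%, which left 311 stress and 317 control members, the list's median turned to -0.03. That median is over 12 tested genes in place of 14, so the gene sets are not the same.

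**Figure D1:**
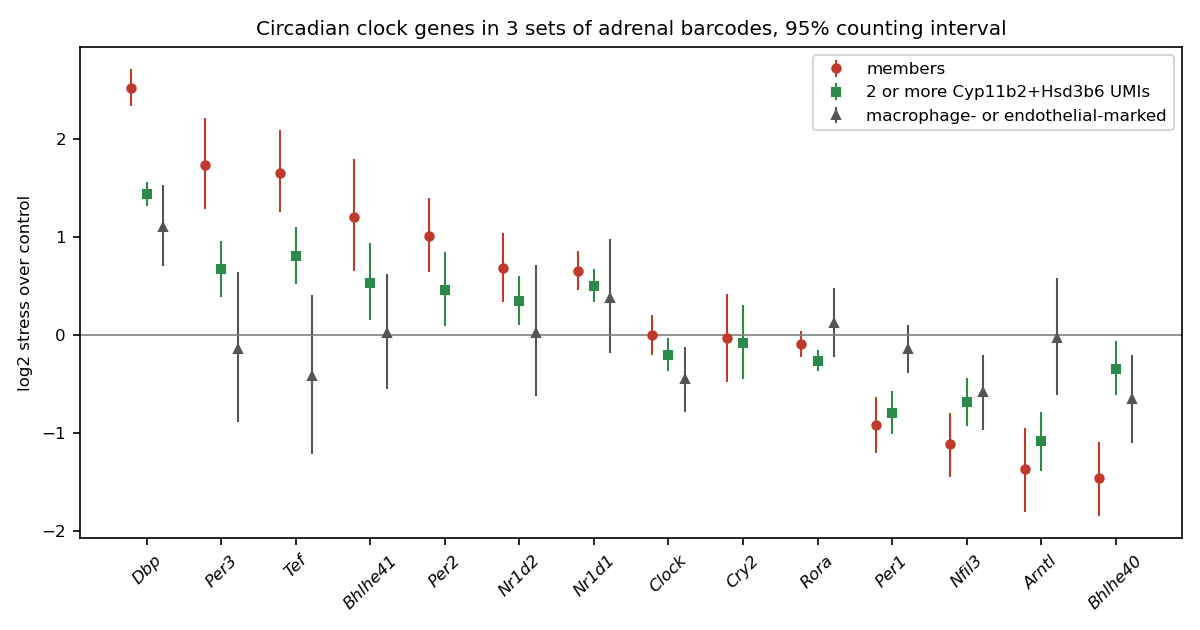
Log2 ratio of stress over control for the 14 clock genes tested, in the members, in barcodes with 2 or more Cyp11b2 and Hsd3b6 UMIs and in macrophage- or endothelial-marked barcodes (each of the last with at least 50 UMIs), with 95% counting intervals. Dbp reaches 2.52 in the members and Bhlhe40 -1.46, and Dbp is at 1.44 and 1.10 in the other sets.

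Genes known from capillaries were also among the 12 named higher genes. Gpihbp1, which anchors lipoprotein lipase to capillary endothelium, had 22.8 CPM in stress and 3.997 CPM in control members, a log2 ratio of 2.49. Fabp4, a fatty acid binding protein of fat cells, capillaries and macrophages, had 47.3 CPM in stress and 9.57 CPM in control members, 2.30. Igfbp3, a binding protein of insulin-like growth factors, was at 2.29, the endothelial sialomucin gene Emcn at 1.71 and Ly6c1 at 1.65. These genes were far higher in macrophage- or endothelial-marked barcodes, where Fabp4 was at 1437 CPM in stress and 918 CPM in control and Emcn at 774 and 692 CPM, and the endothelial marker sum was higher in stress members, as given above. In members not marked as another type, Fabp4 was at 1.49 and Ly6c1 at 1.20, and Emcn, Gpihbp1, Igfbp3, Fam167b and Fscn1 were under 100 UMIs. The part of endothelial RNA in these differences was not tested. Others among the named higher genes were the actin-bundling gene Fscn1 (12.5 CPM in stress and 3.14 in control, 1.97), Fam167b (13.1 and 3.28 CPM, 1.97) and the proteoglycan gene Cspg5 (31.4 and 10.6 CPM, 1.57).

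Nr4a1 (ENSMUSG00000023034, chromosome 15, 101254269 to 101274795, plus strand) had 167 CPM in stress members and 551 CPM in control members. It encodes an orphan nuclear receptor that ACTH induces rapidly and that acts on promoters of steroid synthesis genes. A UMI was found in 342 stress and 473 control members, and the log2 ratio was -1.72 (-1.82 to -1.63). Amotl2, which encodes a junction protein of the angiomotin family that binds YAP, had 37.0 CPM in stress and 147 CPM in control members (-1.98, interval -2.19 to -1.79). Cxcr4, the receptor for the chemokine Cxcl12, had 46.8 and 139 CPM (-1.57), and the kinase gene Pim1 64.0 and 152 CPM (-1.25). Mmd2 was at 45.5 CPM in stress and 148 CPM in control members (-1.70), and Pdlim2, a PDZ-LIM protein gene, at 38.2 and 92.8 CPM (-1.28). All of these were found in at least 168 members of each library.

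The rest of the 12 named lower genes were sparser. Aldh1a1, an enzyme that makes retinoic acid and clears aldehydes, had 3.38 CPM in stress and 19.4 CPM in control members (-2.50, interval -3.23 to -1.88), in 15 and 49 members. It was at 260 CPM in stress and 912 CPM in control barcodes with 10 or more Abcb1b UMIs. Members close to that cut, with 5 to 9 Abcb1b UMIs, numbered 17 in stress and 37 in control. Their part in the Aldh1a1 difference was not tested. Bhlhe40 and Mt2 are described with their lists. Pianp (9.83 CPM in stress and 27.4 in control, -1.47), the tubulin gene Tubb3 (8.66 and 24.4 CPM, -1.49) and the cyclin G2 gene Ccng2 (3.52 and 11.7 CPM, -1.71) completed them. With the ratio in macrophage- and endothelial-marked barcodes subtracted, Tubb3 turned to 0.05.

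Nr4a1, Amotl2, Cxcr4, Pim1 and Mmd2 were lower in other cortex barcodes too, except Mmd2 in those with 10 or more Abcb1b UMIs. With 2 or more UMIs of Cyp11b2 and Hsd3b6, the log2 ratio was -1.30 for Nr4a1, -1.53 for Amotl2, -1.27 for Cxcr4, -1.02 for Pim1 and -1.28 for Mmd2. In macrophage- or endothelial-marked barcodes the same genes were at -0.46, -0.20, -0.18, -0.44 and -0.27. In the barcodes with 10 or more Abcb1b UMIs, Cxcr4 was at -1.51, Pim1 at -1.02, Nr4a1 at -0.66, Amotl2 at -0.48 and Mmd2 at 0.02. These are values of the same pair of pools, and the differences between sets were not tested.

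**Figure D2:**
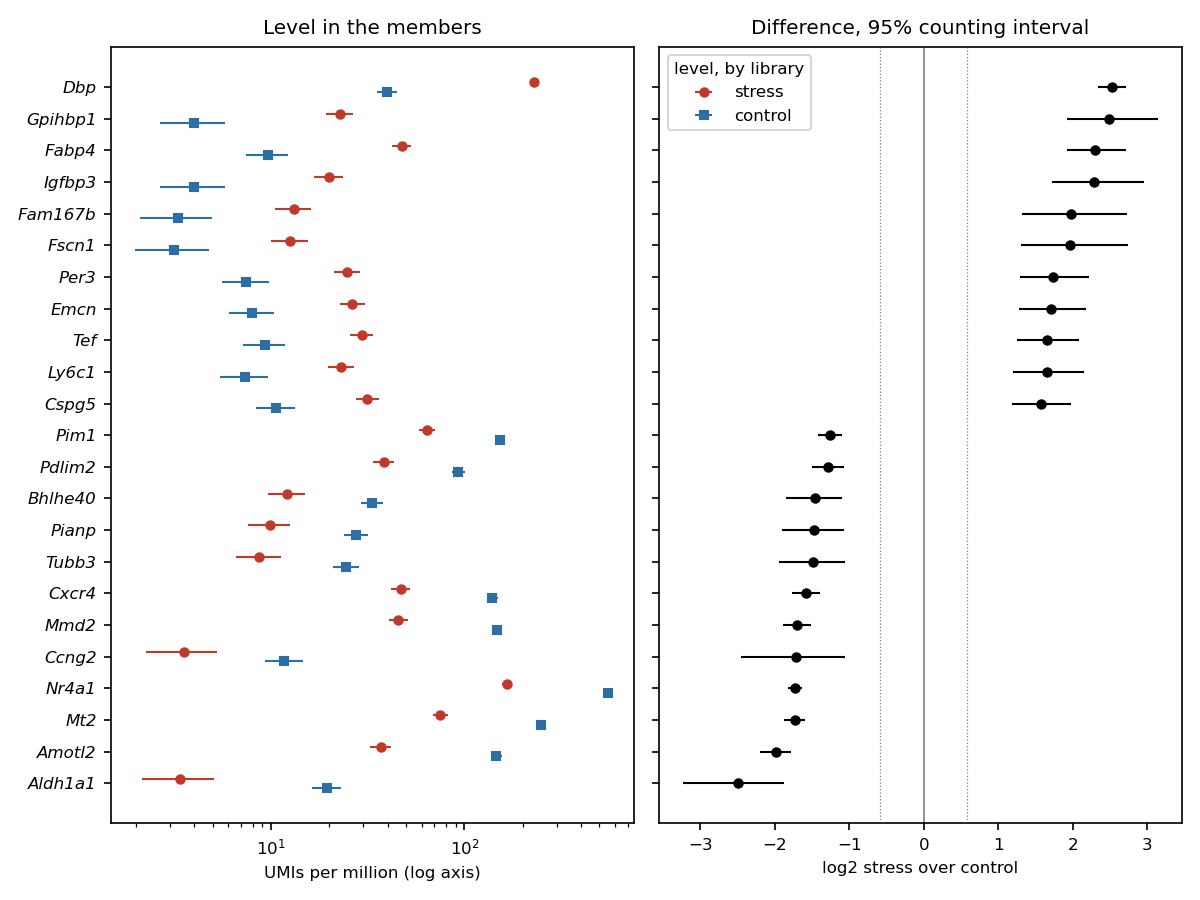
Level (CPM, log axis) in the stress and control libraries and log2 ratio of stress over control for 11 of the 12 higher and for the 12 lower genes chosen by the interval bound nearest 0, with 95% counting intervals and dotted lines at 1.5-fold. Dbp has 229 CPM in stress and 39.8 CPM in control members, and Aldh1a1 3.38 and 19.4 CPM.

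Corticosterone synthesis genes stood close to their control levels. Of 11 core genes tested, 3 were above and 8 below control, none was called, and the median log2 ratio was -0.13 against 0.04 over all genes. The side-chain cleavage enzyme gene Cyp11a1, which starts the pathway, had 5413 CPM in stress and 6312 CPM in control members (-0.22, interval -0.24 to -0.20). Hsd3b1 had 4877 and 6425 CPM (-0.40) and the 21-hydroxylase gene Cyp21a1 4708 and 6346 CPM (-0.43). Star was at 0.08, and Fdx1, the ferredoxin that passes electrons to the mitochondrial steroid enzymes, had 2861 CPM in stress and 2307 CPM in control members (0.31). Por, the electron donor of the enzymes outside the mitochondria, was at 168 and 126 CPM (0.42). Cyp11b1 was at -0.13, but it chose the members. It is counted among the 11 genes and among the 8 below control, and its value lies at the list's median. Reads of Cyp11b1 and Cyp11b2, and of Hsd3b1 and Hsd3b6, could be split between near-identical copies in the counting.

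The ACTH receptor and its signal chain showed 1 called gene. Crem (chromosome 18, 3266048 to 3337748, minus strand), a gene of cAMP-responsive factors that also yields the inducible repressor ICER, had 232 CPM in stress and 123 CPM in control members, a log2 ratio of 0.91 (0.79 to 1.03). The other 16 genes tested were not called. Mc2r was at -0.08 (-0.18 to 0.01), its accessory protein gene Mrap had 196 CPM in stress and 240 CPM in control members (-0.29), and Pde8b, a cAMP phosphodiesterase of the adrenal cortex, was at -0.54. Crem was also at 0.71 in Abcb1b-high barcodes and at 0.56 in those with Cyp11b2 and Hsd3b6 UMIs. It therefore differed from Nr4a1, another cAMP-induced gene, in direction within the same members.

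Of 13 steroidogenic transcription factor genes, 2 were called lower and none higher. Besides Nr4a1, Gata6, a zinc finger factor of the adrenal cortex, had 66.8 CPM in stress and 109 CPM in control members (-0.70). With the ratio in macrophage- and endothelial-marked barcodes subtracted, Gata6 turned to 0.15. Nr5a1, the master regulator of steroid-producing cells, was at 218 CPM in stress and 175 CPM in control members (0.32), and Nr4a3, a relative of Nr4a1, was at 0.37. The list's median was -0.07.

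Cholesterol supply gave few calls. Of 12 uptake, storage and efflux genes, 1 was called higher, Lipa, the lysosomal lipase that frees cholesterol from lipoprotein esters, with 69.1 CPM in stress and 43.3 CPM in control members (0.68). Scarb1, the receptor for high-density lipoprotein, was at 855 and 899 CPM (-0.07), the efflux pump gene Abca1 was at -0.52, and Apoe had 443 CPM in stress and 314 CPM in control members (0.50). Lipa and Apoe are also abundant in macrophages, whose marker sum in unmarked members was higher in stress, and its part in these values was not tested. Of 17 cholesterol synthesis genes, 14 were below control with a median of -0.26, and 1 was called lower and none higher. Hmgcs1 was at -0.40 and Insig1 at -0.42. Of 5 ABC transporter genes tested none was called, with a median of -0.09. Abcb1b is among these 5, and its level was limited by the rule.

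Immediate-early genes, which cells switch on within minutes of a stimulus or of dissociation, were mostly below control. Of 18 tested, 16 were below and 5 were called lower, none higher, with a median of -0.44. The called genes were Nr4a1, Ier3 (26.7 CPM in stress and 66.1 in control, -1.30), the AP-1 gene Junb (632 and 1061 CPM, -0.75), Zfp36, which speeds the decay of cytokine mRNAs (193 and 320 CPM, -0.73), and Socs3, a brake on cytokine signalling (62.7 and 96.9 CPM, -0.63). Fos had 903 CPM in stress and 1332 CPM in control members (-0.56), in 400 and 435 members. Klf6 was at 0.46 and Klf4 at 0.37. The same list had a median of -0.66 in Abcb1b-high barcodes, -0.32 in those with Cyp11b2 and Hsd3b6 UMIs and 0.05 in macrophage- or endothelial-marked barcodes.

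Genes that glucocorticoids induce in many tissues were below control in 13 of 16 cases, with 5 called lower and 1 higher and a median of -0.40. The metallothionein genes Mt2 and Mt1, which bind zinc and copper, led with 75.01 CPM in stress and 249 CPM in control members (-1.73) and with 536 and 1154 CPM (-1.11). Per1, Nfkbia, the inhibitor of NF-kappaB (105 CPM in stress and 185 in control, -0.82), and Errfi1, a brake on EGF receptors (25.4 and 41.0 CPM, -0.69), were the other called genes. Angptl4, a lipoprotein lipase inhibitor, was called higher at 12.9 and 7.42 CPM (0.79). The widely used markers Fkbp5 and Tsc22d3 were at -0.34 and -0.04, and Sgk1 at 0.27. Nr3c1, the glucocorticoid receptor gene, had 12.3 CPM in stress and 10.3 CPM in control members (0.26, interval -0.21 to 0.74), which is not a difference beyond counting error. Of the 9 receptor and cofactor genes tested, 1, Hsp90aa1, was called, with a median of 0.21.

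Heat-shock and chaperone genes were above control in all 12 cases, with 2 called and a median of 0.30. Hsph1, a co-chaperone of Hsp70, had 187 CPM in stress and 96.7 CPM in control members (0.95), and Hsp90aa1, the inducible Hsp90, 1354 and 856 CPM (0.66). Dnaja1 was at 704 and 471 CPM (0.58) and the mitochondrial chaperonin gene Hspd1 at 0.01. The list's median was 0.53 in macrophage- or endothelial-marked barcodes, where 11 of 12 genes were above control, 0.17 in those with Cyp11b2 and Hsd3b6 UMIs (10 of 12) and 0.10 in Abcb1b-high barcodes (6 of 10). With the ratio in macrophage- or endothelial-marked barcodes subtracted gene by gene, the members' median turned to -0.16, Hsp90aa1 to -0.06 and Hsph1 to -0.03. Of 16 unfolded protein response genes none was called, with a median of 0.02.

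Interferon and antigen presentation genes had a median of 0.07 over 16 tested. Irf1, an interferon-induced factor, had 12.5 CPM in stress and 28.7 CPM in control members (-1.20), and the peptide transporter gene Tap1 5.87 and 9.85 CPM (-0.74). Psmb9, an immunoproteasome subunit, was called higher at 26.1 and 17.1 CPM (0.61). Respiratory chain genes of the nucleus (20 tested, median 0.00) and oxidative stress response genes (12 tested, median 0.03) had no called gene. The 13 mitochondrially encoded genes had none either, with a median of 0.04 and values between -0.44 for mt-Atp8 and 0.51 for mt-Nd4l.

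Among detoxification genes, Akr1b7 (ENSMUSG00000052131, chromosome 6, 34412334 to 34423142, plus strand) carried the most UMIs. It encodes an aldose reductase-like enzyme that ACTH induces in the cortex and that clears the aldehyde released when cholesterol's side chain is cut. Stress members had 2822 CPM and control members 5026 CPM, a log2 ratio of -0.83 (-0.86 to -0.81). Of 21 genes tested, 2 were called lower, Akr1b7 and Aldh1a1, and 2 higher, the alcohol dehydrogenase gene Adh1 (326 CPM in stress and 190 in control, 0.78) and the glutathione transferase gene Gstp1 (158 and 98.7 CPM, 0.68). The list's median was -0.04. Akr1b7 was at -0.40 in Abcb1b-high barcodes and at -0.34 in those with Cyp11b2 and Hsd3b6 UMIs. Akr1b8 and Akr1b10, close relatives of Akr1b7 whose reads may be shared with it, were at 0.03 and -0.30.

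Genes of the outer cortex were somewhat higher in stress members. Of 12 zona glomerulosa genes tested, 9 were above control, against 4767 of all 8450 genes. Of the 12, 2 were called higher and the median was 0.24. Vsnl1, a calcium sensor gene, had 118 CPM in stress and 66.1 CPM in control members (0.84), and Dab2, an endocytic adaptor gene, 487 and 323 CPM (0.59). Wnt4, a signal of the outer cortex, was at 627 and 509 CPM (0.30) and the calcium channel gene Cacna1h at -0.57. Since the rule removed barcodes with Cyp11b2 or Hsd3b6 UMIs, these levels come from barcodes without 2 of them, and the outer-zone genes Smoc2, Nov, Oprk1 and Mcoln3 had 0 UMIs in all members. Of 7 listed genes of the X-zone, a transient inner zone in mice, Akr1c18, Pik3c2g and Mme had 0 UMIs as well. The 2 X-zone genes with enough UMIs to be tested had a median of 0.03, with 1 above and 1 below control and none called. Of these 2, 1 was Abcb1b, which the rule kept low in every member, so the median says little of the X-zone.

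Growth and cell cycle genes had medians above that of all genes tested. Of 8 growth and imprinted genes, 2 were called higher, Mest (54.3 CPM in stress and 30.7 in control, 0.82) and the growth factor receptor adaptor Grb10 (65.3 and 40.8 CPM, 0.68), and Meg3, an imprinted long noncoding RNA, was at 3628 and 2917 CPM (0.31). The median was 0.30. Of 10 cell cycle genes tested, 2 were called higher, the replication genes Mcm3 (0.62) and Tyms (0.59), and 1 lower, the inhibitor gene Cdkn1b (-0.62), with a median of 0.41. Tyms turned to -0.11 with the macrophage- and endothelial-marked ratio subtracted. Genes of dividing cells were under 100 UMIs and came from few members. Mki67 had 30 UMIs in stress and 4 in control members, in 7 and 3 members, Top2a 42 and 3 UMIs in 9 and 3 members, and Birc5 67 and 2 UMIs in 22 and 2 members.

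**Figure D3:**
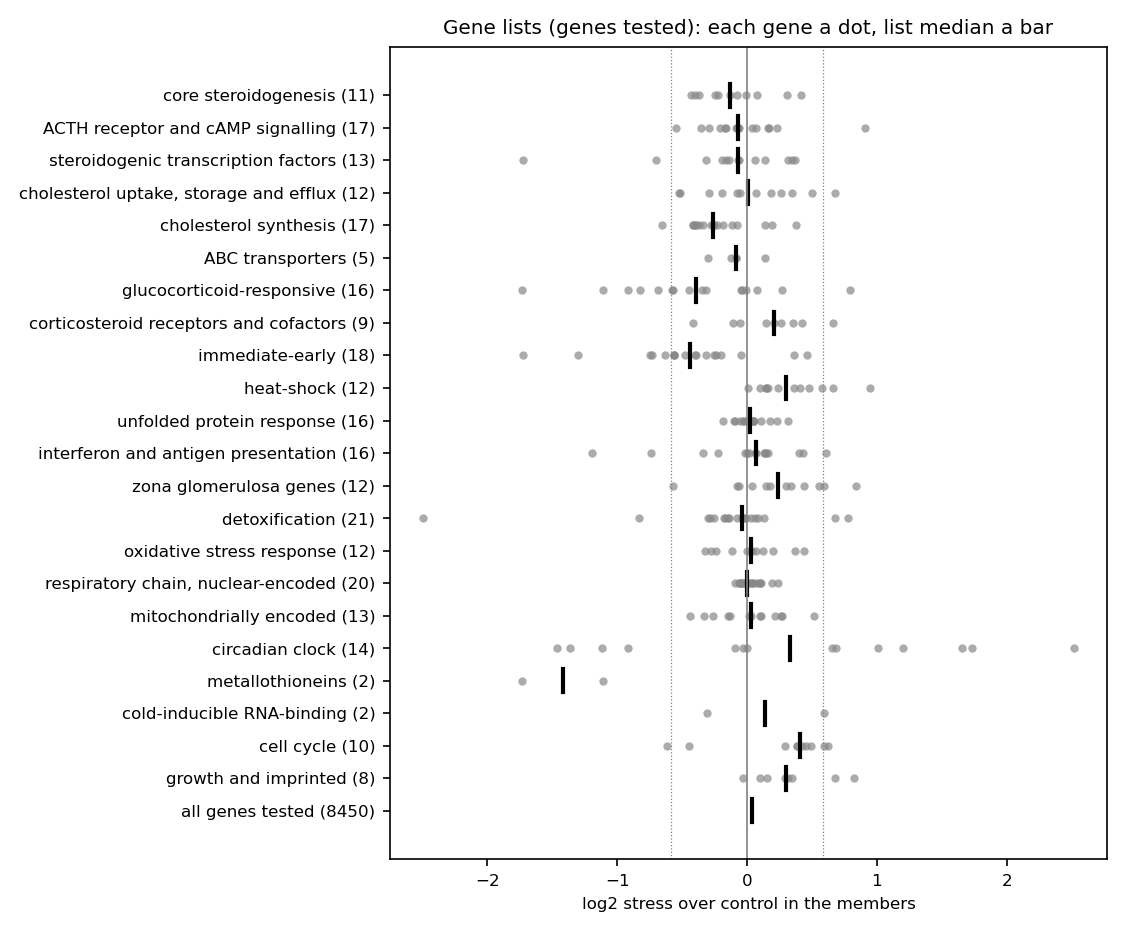
Log2 ratio of stress over control for each tested gene of the fixed lists (dots), the list medians (bars), the number tested in parentheses, and dotted lines at 1.5-fold. The metallothioneins lie at -1.73 and -1.11, all heat-shock genes above 0, and the clock genes spread from -1.46 to 2.52 around an all-gene median of 0.04.

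The members also differed among themselves within each library. The 20 genes with the widest spread for their mean, of 4463 compared in members thinned to 2000 UMIs, held Akr1b7, Ly6d, 1500015O10Rik, Fos, Mt1 and Mt2, 5 mitochondrially encoded genes and the nuclear RNA Malat1. They also held Cd74, H2-Ab1, H2-Aa, Lyz2, Ccl4, Cxcl2 and Apoe, which macrophages express, and Tmsb4x, which encodes an actin-binding peptide. Per 10000 UMIs of a member, Akr1b7 had a median of 16.6 in stress (10th to 90th percentile 5.15 to 58.1) and 42.0 in control members (10.4 to 90.9). Ly6d, a surface protein gene, had a median of 40.7 in stress (2.096 to 108.3) and 27.0 in control members (0.91 to 94.9). The control median of Akr1b7 was above the stress median, and the percentile ranges of the libraries overlapped for both genes.

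1500015O10Rik (chromosome 1, 43730602 to 43742578, plus strand), a secreted protein gene, had a median of 5.17 in stress (0.62 to 48.6) and 1.88 in control members (0 to 23.6), so a minority of members held most of it. Fos had a median of 2.12 in stress (0 to 28.5) and 4.66 in control members (0 to 39.2). Malat1, which stays in the nucleus, had a median of 534 in stress (307 to 879) and 675 in control members (423 to 1054). Across members thinned to 2000 UMIs, Akr1b7 and 1500015O10Rik ran opposite to each other, with Spearman's rho of -0.41 over 554 stress and -0.46 over 504 control members. Akr1b7 had a rho of 0.29 in stress and 0.40 in control members with Cyp21a1, and of 0.25 and 0.28 with a member's total UMIs. Fos and Junb ran together, with a rho of 0.67 in stress and 0.65 in control members. These describe cells that share a library and an ambient pool and are no test.

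**Figure D4:**
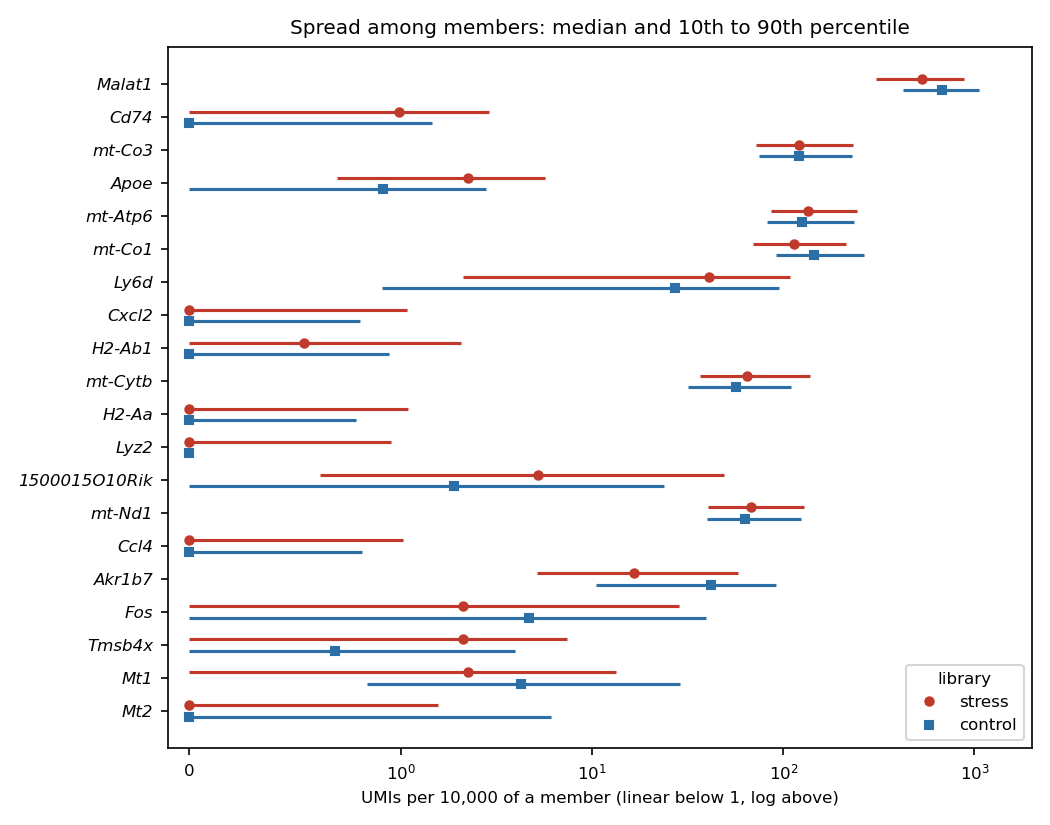
Median (points) and 10th to 90th percentile (lines) of UMIs per 10000 in single members, stress and control, for the 20 genes with the widest spread for their mean; the axis is linear below 1 and logarithmic above. Akr1b7 has a median of 16.6 in stress and 42.0 in control members, and Lyz2, Cxcl2 and Ccl4 have medians of 0 in both.

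The second comparison set the members against cortex barcodes at the same Cyp11b1 minimum but 10 or more Abcb1b UMIs (90 stress and 64 control barcodes). Members had far less Mgst2, Aldh1a1 and Sbsn RNA, less mitochondrially encoded and cholesterol synthesis RNA, and more immediate-early and outer-cortex gene RNA. UMIs were summed per class and library and fitted with edgeR's quasi-likelihood test with a term for the library. The stress pool and the control pool were thus the 2 replicates of a class, with no replicate within a condition. P-values were adjusted by Benjamini-Hochberg over 11880 genes. Of these, 1001 (8.43%) were higher and 935 (7.87%) lower in members at an adjusted p under 0.05, and the median log2 ratio over all was 0.03. Cyp11b1, Cyp11b2, Hsd3b6 and Abcb1b were left out of the calls. The classes were cut on counts of the same barcodes. The fit held 3 classes, the third being the barcodes with 2 or more UMIs of Cyp11b2 and Hsd3b6. All shared the estimate of the spread, so each p-value also depends on the third class. The p-values say only how alike the class differences were in the 2 pools, and a class difference that changed with stress counts as spread. The Abcb1b-high barcodes had a median of 18.6% mitochondrial UMIs in the stress and 10.2% in the control library. With a limit of 10% on that share, 6 and 28 of them were left, and 358 genes were higher and 242 lower in members. With barcodes thinned to 2000 UMIs the counts were 333 and 326 of 8358 genes tested, and with DESeq2 611 and 637 of 11319.

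Mgst2, a microsomal glutathione transferase gene, had 2.35 CPM in stress and 0.286 CPM in control members, against 169 and 218 CPM in Abcb1b-high barcodes, a log2 ratio of members over Abcb1b-high of -7.24 (adjusted p = 2.35e-06). Aldh1a1 had 3.38 and 19.4 CPM in members, against 260 and 912 CPM (-5.80, adjusted p = 4.13e-07). Sbsn, which encodes suprabasin, had 41.7 and 31.0 CPM in members, against 1329 and 1370 CPM (-5.29). The steroid 5-alpha-reductase gene Srd5a2 had 44.8 and 67.1 CPM in members, against 653 and 525 CPM (-3.48), and the kinase gene Mapk13 was at -4.35. In all 5 genes the 2 libraries of a class lay on the same side of both libraries of the other. Uchl1 (-2.85), Gsg1l (-2.61) and Rgcc (-2.48) completed the 8 named lower genes. Gpx3, the secreted glutathione peroxidase, was at -4.96.

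The named higher genes were sparse in the Abcb1b-high barcodes. Enpp2, which encodes the lysophospholipase D autotaxin, had 15.7 CPM in stress and 14.4 CPM in control members, and 0 UMIs in Abcb1b-high barcodes of both libraries, which makes members at least 7.76-fold higher against a floor of 3 UMIs over that class. The homeobox gene Cux2 had 27.6 and 31.1 CPM in members, against 1 and 2 UMIs, the kinase gene Tnik 19.96 and 17.3 CPM, against 1 and 1 UMI, and Nr0b1, the nuclear receptor that represses Nr5a1, 20.5 and 16.1 CPM, against 0 and 2 UMIs. With barcodes thinned to 2000 UMIs, the adjusted p of Enpp2, Cux2, Tnik and Nr0b1 was 0.057, 0.071, 0.054 and 0.075, and that of Bex4 was 0.56. The log2 ratio of Cux2 was then 3.06, and that of Bex4 1.00. In the edgeR fit at the 10% mitochondrial limit, Nr0b1 was at 2.04 with an adjusted p of 0.18. The other named higher genes stayed under 0.05 there. Pde2a, a phosphodiesterase that cGMP activates, had 217 and 187 CPM in members, against 11.6 and 27.8 CPM (3.36, adjusted p = 1.54e-05). Sbspon was at 3.37, with 87.2 and 67.2 CPM in members, against 5.79 and 8.77 CPM.

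The lists showed where the classes parted. Of 19 immediate-early genes, 15 were higher in members and none lower, with a median of 2.29, among them Junb (2.88), Fos (2.64) and Fosb (3.13), whereas Nr4a1 was at 0.01 and not called. Of 13 zona glomerulosa genes, 9 were higher, with Vsnl1 at 2.82, Shh at 2.69, Wnt4 at 2.19 and the angiotensin receptor gene Agtr1a at 1.80, and of 12 heat-shock genes 7 were higher (median 0.57). Of 13 mitochondrially encoded genes, 12 were lower in members (median -1.24), beside the higher mitochondrial share of the Abcb1b-high barcodes. Of 22 cholesterol synthesis genes, 12 were lower and none higher (median -1.07), among them Sqle (-1.58) and Cyp51 (-1.75), and of 14 uptake genes 6 were lower, among them Cd36 (-2.75) and Scarb1 (-0.64). Of 10 core steroidogenesis genes, 3 were lower, with Star at -0.63 and Fdx1 at -0.84. Mc2r was higher in members (0.89) and its partner Mrap lower (-1.53). Of 24 detoxification genes, 5 were higher and 7 lower, and Akr1b7 was at 0.16 and not called.

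The third comparison set the members against the barcodes with 2 or more UMIs of Cyp11b2 and Hsd3b6 (779 stress and 434 control barcodes), at any Cyp11b1 level. Members had more RNA of 4 core steroidogenesis genes and less of outer-cortex genes. In the same edgeR fit, 395 of 11880 genes (3.32%) were higher and 568 (4.78%) lower in members. With DESeq2 the counts were 100 and 119 of 9399 genes tested, and without the library term 89 and 166 of 11880. Srd5a2 led the higher genes with 44.8 and 67.1 CPM in stress and control members, against 15.2 and 18.0 CPM (1.82, adjusted p = 0.00107). Acsbg1, an acyl-CoA synthetase gene, had 162 and 274 CPM in members, against 62.8 and 70.2 CPM (1.75), and the homeobox gene Hhex 110 and 191 CPM, against 50.5 and 71.1 CPM (1.35). Mmd2 (1.82), Sema5b (1.503), Col6a1 (1.47), Slc41a3 (1.42) and Gadd45a (1.38) were the others named. Without the library term the adjusted p was 0.12 for Mmd2 and 0.079 for Gadd45a, and with thinned barcodes it was 0.24 for Sema5b. Of 10 core steroidogenesis genes, 4 were higher and none lower, namely Hsd3b1 (0.66), Cyp11a1 (0.65), Star (0.57) and Tspo (0.40), a protein of the outer mitochondrial membrane. Akr1b7 was at 1.03, Mrap at 1.01, Abca1 at 0.85, Scarb1 at 0.78 and Crem at 0.58. Of 20 ACTH receptor and cAMP signalling genes, 4 were higher and 1 lower, with a median of -0.05. The Cyp11b1 minimum held for the members only. Among thinned members, Star had a rho of 0.19 in stress and 0.26 in control with Cyp11b1. Barcodes with 2 UMIs of Cyp11b2 and Hsd3b6 that met the minimum had 2007 CPM of Star in stress and 1787 in control. Members with 1 such UMI had 2178 and 1990 CPM. The part of the Cyp11b1 minimum in the class differences was not tested.

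The genes lower in members were led by the enolase gene Eno3, with 24.8 CPM in stress and 9.85 CPM in control members, against 125 and 103 CPM (-2.69, adjusted p = 7.7e-05). Agtr1b, an angiotensin receptor gene, had 10.3 and 7.57 CPM in members, against 47.3 and 51.7 CPM (-2.40). 1500015O10Rik had 1513 and 724 CPM in members, against 4800 and 5162 CPM (-2.13, adjusted p = 0.00187), and with DESeq2 its adjusted p was 0.20. Scg5 (-2.65), Gulo, the last enzyme of vitamin C synthesis (-2.64), Mybpc1 (-2.49), Pcdh19 (-2.48) and Cox6b2 (-2.17) were the others named. Of 13 zona glomerulosa genes, 9 were lower, among them Vsnl1 (-1.86), Dab2 (-1.34), Wnt4 (-1.08) and Agtr1a (-0.63), and of 18 cell cycle genes 9 were lower and 1 higher. None of the immediate-early, heat-shock and mitochondrially encoded genes was called here at an adjusted p under 0.05, in the fit given above. The members thus stood between the other classes for Vsnl1, Dab2 and Wnt4, above the Abcb1b-high barcodes and below those with Cyp11b2 and Hsd3b6 UMIs.

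**Figure D5:**
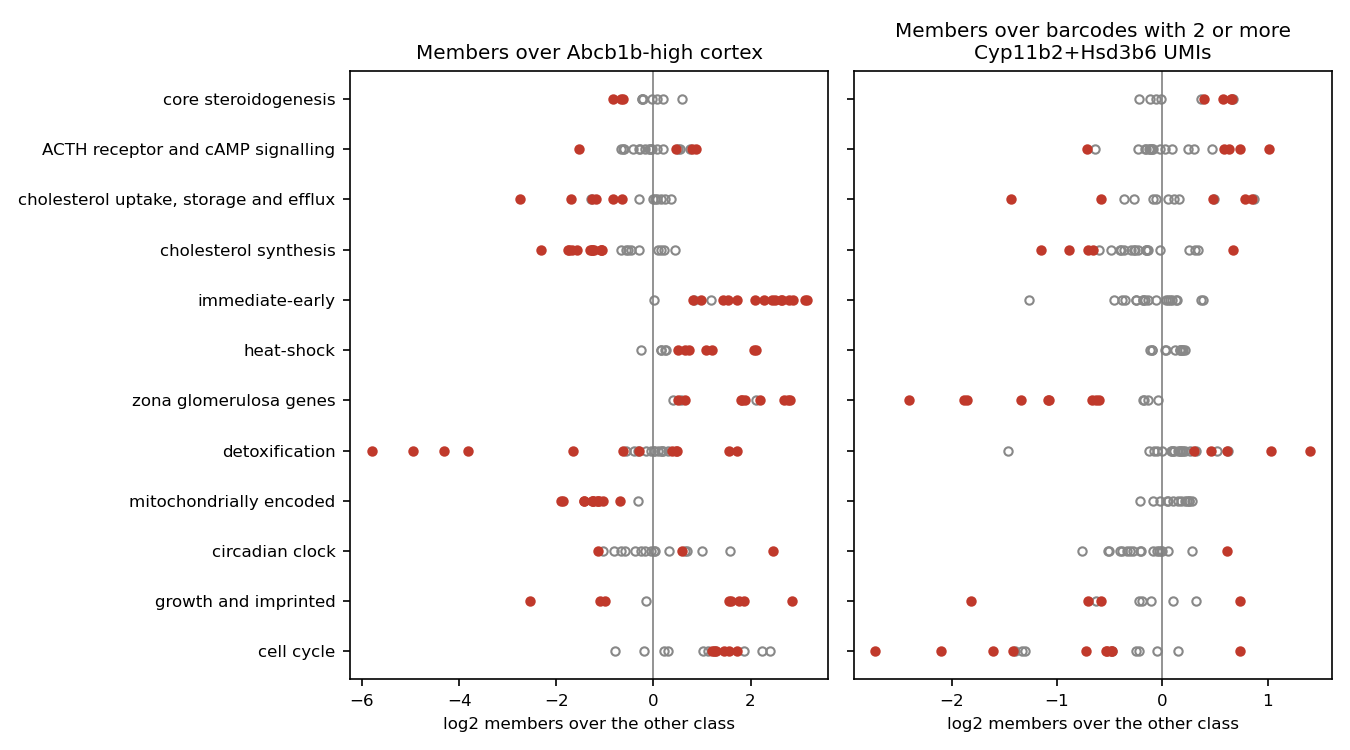
Log2 ratio of members over Abcb1b-high cortex (left) and over barcodes with 2 or more Cyp11b2 and Hsd3b6 UMIs (right) for the genes of 12 lists that had UMIs in both classes; filled points have an adjusted p under 0.05 and open points do not. Immediate-early genes lie to the right of 0 on the left panel and around 0 on the right panel, and Aldh1a1 at -5.80 is the point farthest left.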

How the data were processed

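The authors deposited unnormalised UMI counts per gene and barcode, with 27998 genes. The submitters' processing notes name Cell Ranger 2.1.1, Scanpy and the build mm10. Per the labels' protocols, mice were perfused with cold saline, and both adrenal suspensions, made with collagenase, ran on 1 chip with 10x v2 chemistry. The sources used here did not give strand, annotation, sex or time of collection. The lowest adrenal barcode held 3303 UMIs in the stress and 3536 in the control library, which held 33836656 and 29059956 UMIs.

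The members and the 24 gene lists were chosen with earlier results of these data known. UMI sums per library were compared by ratio with exact conditional intervals, which cover counting error only. Genes named between conditions were the 12 each way whose interval bound lay farthest from 0, among genes that, in the library where they were higher, were in at least 5% of members with under 50% of UMIs in the top 5. A few genes are not reported here. Genes named between classes were the 8 largest log2 ratios each way among called genes with at least 100 UMIs in both libraries of the class where they were higher; others came from the lists. Class sums were tested with edgeR 4.0.16 (TMM, filterByExpr, glmQLFTest; R 4.3.3), with DESeq2 1.42.0 as the alternative, after a check on simulated data. Coordinates came from GENCODE vM21 on GRCm38, matched by gene ID. Doublets were scored with scanpy 1.11.5 and kept.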

Additional observations from a re-analysis of the deposited data

Results flagged for a closer look

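Under the same contrast of stress over control, 2 lists stood on opposite sides of control in the members and in another set of adrenal barcodes, both by the median log2 ratio and by the medians of the genes' interval bounds. In each case the difference was not tested, since each condition was 1 library. The zona glomerulosa genes had a median log2 ratio of 0.24 in members (12 genes tested) and -0.60 in Abcb1b-high barcodes (4 genes), a gap of 0.842. Their median was -0.54 in macrophage- or endothelial-marked barcodes (9 genes), a gap of 0.778 to the members. The mitochondrially encoded genes had a median of 0.04 in members and -0.12 in macrophage- or endothelial-marked barcodes, a gap of 0.157, and the members' median was -0.0014 when libraries were scaled by TMM factors. Other lists also differed in the sign of the median, with bounds that reached across 0 in at least 1 of the sets. Cholesterol synthesis genes were at -0.26 in members (17 genes) and 0.68 in Abcb1b-high barcodes (3 genes), and core steroidogenesis genes at -0.13 and 0.23. The core list holds Cyp11b1, which helped to choose both sets. Clock genes were at 0.33 in members (14 genes) and -0.14 in Abcb1b-high barcodes (3 genes). Growth and imprinted genes were at 0.30 in members and -0.31 in macrophage- or endothelial-marked barcodes, and immediate-early genes at -0.44 and 0.05.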

How the results depend on the processing

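With 1 library per condition, differences between stress and control have no replicate check, and levels near 1 UMI per member limit the sparser genes. Of 336 list medians under alternatives, 309 stayed within the main intervals, 23 moved and 4 were counted as turned in sign. A median was counted as turned only where its main interval excluded no difference. Sign changes of other medians, close to no difference, are among those that stayed or moved. Of 3892 values of single genes, 3449 stayed within their intervals, 438 moved and 5 were counted as turned, which was done for called genes only. The number of genes higher and lower in stress stayed between 176 and 211 and between 212 and 291 under the other settings. It was 82 and 81 of 3040 genes with members thinned to 2000 UMIs, and 457 and 426 of 11325 with a minimum of 20 UMIs. At 2-fold it was 48 and 46 of 8450. With the ratio in macrophage- or endothelial-marked barcodes subtracted it was 638 and 416 of 8347, with intervals that left out the counting error of the subtracted ratio.

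That subtraction turned the receptor and cofactor median to -0.00342, the heat-shock median to -0.16, Tubb3 to 0.0483, Gata6 to 0.15, Hsp90aa1 to -0.0560, Hsph1 to -0.0260 and Tyms to -0.11. TMM scaling turned the mitochondrially encoded median to -0.0014, and Cyp11b1 of at least 0.2% the clock median to -0.0285, over 12 genes in place of 14. The cause was not tested. Members were 15.1% of stress and 18.8% of control barcodes at a mitochondrial limit of 10%, 20.6% and 25.3% with no such limit, 9.77% and 13.6% at Cyp11b1 of at least 0.2%, and 15.6% and 18.0% at fewer than 3 Abcb1b UMIs. A planned Cyp11b1 minimum of 1% left no member. The settings of 0.2% of Cyp11b1 and, in the class fits, of a 10% mitochondrial limit were chosen after seeing the data.

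No paired analysis was possible because stress and control were 1 library each. In the class fits the library served as the block. Without that block, 89 genes were higher and 166 lower in members than in barcodes with Cyp11b2 and Hsd3b6 UMIs, and 839 and 763 against Abcb1b-high barcodes. Against the Cyp11b2 and Hsd3b6 class, 100 and 119 of 9399 genes passed with DESeq2, and 644 and 901 of 17081 with no filter on low counts. With thinned barcodes 87 and 119 of 8358 passed, and at a 10% mitochondrial limit 728 and 875 of 11536. Against Abcb1b-high barcodes, 611 of 11319 genes were higher with DESeq2, 333 of 8358 higher and 326 lower with thinned barcodes, and 358 and 242 of 11536 at the 10% limit.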
